A study of Mus musculus with 5 samples.

Results

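RNA polymerase II occupancy of the spleen was set against brain, kidney, liver and lung, all from adult FVB mice, an inbred laboratory strain. Chromatin from freshly dissected tissue was crosslinked with formaldehyde, precipitated with an antibody against RNA polymerase II and sequenced, with 1 library per tissue, and the labels do not say how many mice a library came from. No input library was used here. No treatment or engineered allele was recorded for any of the 5 tissues. The members are the spleen windows, made by extending each of the 31594 spleen peak positions by 250 bp to both sides and merging those that overlapped. This gave 31139 windows covering 15.8 Mb, out of 186413 regions when the peaks of all 5 tissues were merged in the same way. With 1 library per tissue no difference could be tested, so intervals below are 95% exact conditional binomial intervals, which cover counting error only and not differences between mice. Reads carry no molecular identifiers and are not independent molecules.

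The spleen filters blood and is also a lymphoid organ. Its white pulp holds B cells in follicles and T cells around arterioles, its red pulp holds macrophages that take up old red cells, and in adult mice it also makes red cells and platelets. RNA polymerase II is most concentrated near the starts of transcribed genes, where it often pauses before elongating, and heavily transcribed genes can carry it along their whole length. These are whole tissues, so a smaller share of cells of a type and less polymerase per cell of that type cannot be told apart.

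No annotation of the build of the deposited coordinates was given. Their chromosome extents fit mouse build mm9, and windows are therefore given by deposited position. Gene names are attached only as places: the position of a gene on mm9 was written down from background knowledge to the nearest 10 kb, after leading windows of these data had been seen, and kept where its spacing to listed neighbours matched a GRCm38 gene table within 20 kb. A place runs for the length of the gene plus 10 kb to both sides, so it can hold windows of neighbouring genes, and a place name is not an annotation of a window. Of 288 places written, 262 were kept. Alas2 and Actb were among the 26 that were not kept and are not examined here.

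Promoter sequence is shown for the globin genes, which were among the erythroid genes highest in spleen, beside Pou2af1 and Cd5l, a B cell and a macrophage gene far higher in spleen. Each run is the 250 bases before the gene start on the gene's own strand, from RefSeq on GRCm38.p6, whose reference strain is not FVB. Hba-a1 lies on chromosome 11, Hbb-bs and Hbb-bt on chromosome 7, Pou2af1 on chromosome 9 and Cd5l on chromosome 3. Capitals mark matches on either strand to 5 motifs searched on both strands. These are GATAA, a core bound by GATA factors, then CACCC, a box bound by KLF factors, then the box CCAAT, the box TATAAA, and the octamer ATGCAAAT, which is bound by the Oct factors that Pou2af1 assists. No motif contains another.
Hba-a1, plus strand: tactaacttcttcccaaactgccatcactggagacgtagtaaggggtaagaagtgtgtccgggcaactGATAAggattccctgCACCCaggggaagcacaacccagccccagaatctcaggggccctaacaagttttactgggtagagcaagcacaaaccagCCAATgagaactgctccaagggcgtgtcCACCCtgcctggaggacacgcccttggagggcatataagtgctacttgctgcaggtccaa
Hbb-bs, minus strand: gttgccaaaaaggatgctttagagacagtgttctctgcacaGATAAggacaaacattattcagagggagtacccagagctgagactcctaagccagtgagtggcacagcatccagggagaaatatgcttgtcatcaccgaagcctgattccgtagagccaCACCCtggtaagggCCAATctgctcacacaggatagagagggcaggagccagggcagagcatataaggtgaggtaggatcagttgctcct
Hbb-bt, minus strand: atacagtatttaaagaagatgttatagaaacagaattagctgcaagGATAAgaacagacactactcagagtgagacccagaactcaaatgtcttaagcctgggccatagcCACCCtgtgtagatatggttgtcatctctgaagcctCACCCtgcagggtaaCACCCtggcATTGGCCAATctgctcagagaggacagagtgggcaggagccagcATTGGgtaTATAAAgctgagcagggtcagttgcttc
Pou2af1, plus strand: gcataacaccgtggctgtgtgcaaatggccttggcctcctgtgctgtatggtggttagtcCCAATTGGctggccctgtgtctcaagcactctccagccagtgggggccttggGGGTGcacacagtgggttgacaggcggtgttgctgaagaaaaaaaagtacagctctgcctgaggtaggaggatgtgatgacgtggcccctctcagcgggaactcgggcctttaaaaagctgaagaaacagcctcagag
Cd5l, plus strand: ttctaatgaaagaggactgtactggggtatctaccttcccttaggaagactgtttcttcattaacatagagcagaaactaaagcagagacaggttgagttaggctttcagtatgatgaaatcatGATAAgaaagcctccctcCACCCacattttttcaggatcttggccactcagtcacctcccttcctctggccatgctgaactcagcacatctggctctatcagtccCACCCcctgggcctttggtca

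All 3 globin runs held the GATA core, the CACCC box and the CCAAT box, and Hbb-bs and Hbb-bt were identical at 178 of 257 aligned columns (69.3%). Over the same 250 bases of 27025 promoters in the table, GATAA was present in 23.0%, the CACCC box in 51.3%, the CCAAT box in 34.5%, TATAAA in 13% and the octamer in 1.61%. The Pou2af1 run held the CCAAT and the CACCC box but not the octamer as spelled here, and the Cd5l run held the GATA core at 1 position and the CACCC box at 2. These matches describe the letters only.

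The spleen library held 13283124 aligned reads, against 10292262 to 14964934 in the other 4. It had the fewest peaks, 31594 against 57816 in liver to 91712 in brain. Spleen windows took 4.57% of spleen reads, against 3.93% of kidney reads to 5.38% of lung reads. The median window held 14 spleen reads, and 6505 windows held at least 20. Libraries were scaled by medians of ratios over 8222 regions well covered in all tissues, or by total reads. The spleen factor was 0.671 by medians of ratios and 1.06 by total reads, so the first scaling puts spleen levels 0.66 higher on the log2 scale than the second before any change in the other libraries. Counts of calls are therefore given under both scalings where the order or direction depends on it. Read counts printed below are not scaled, so their order across tissues can differ from that of the scaled levels.

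Windows were called spleen-high when they held at least 20 spleen reads and a scaled level at least 4-fold that of every other tissue, where any count under 3 in another tissue was raised to 3. By medians of ratios 669 of 6505 windows were spleen-high (10.3%), and by total reads 193 (2.97%). All 193 were among the 669, so 193 windows (2.97%) were spleen-high under both. Because the windows sit on spleen peaks, a higher spleen level in them is partly built in. When regions merged from the peaks of all 5 tissues were used instead, 609 of 13528 with at least 20 spleen reads were called by medians of ratios (4.50%) and 179 by total reads (1.32%).

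Lung stood closest to spleen in most of these counts. Among the 669 windows the next highest tissue was lung in 294, kidney in 147, liver in 129 and brain in 99. Among the 193 called by total reads it was brain in 77, lung in 67, liver in 28 and kidney in 21, so the order of the tissues changed with the scaling. Set against single tissues by medians of ratios, 1712 windows were at least 4-fold higher in spleen than in brain (26.3%), 1567 than in liver (24.1%), 1274 than in kidney (19.6%) and 1086 than in lung (16.7%). By total reads the counts were 966 for brain (14.9%), 1023 for liver (15.7%), 815 for kidney (12.5%) and 366 for lung (5.63%). Lung gave the lowest count under both scalings, while the highest was brain by medians of ratios and liver by total reads. Against the other 4 tissues pooled, 1244 windows were at least 4-fold higher in spleen by medians of ratios (19.1%) and 608 by total reads (9.35%).

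**Figure D1:**
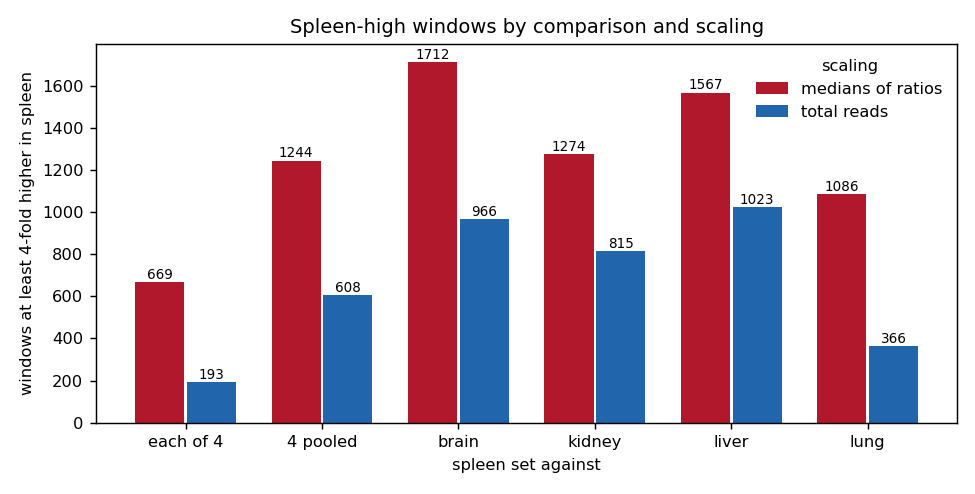
Number of spleen windows, of 6505 with at least 20 spleen reads, at least 4-fold higher in spleen than in each of the 4 other tissues, in them pooled, or in a single tissue (bars, red for medians of ratios and blue for total reads). Lung gives the lowest count of the single tissues, 1086 and 366, and total-read scaling lowers every count.

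**Figure D2:**
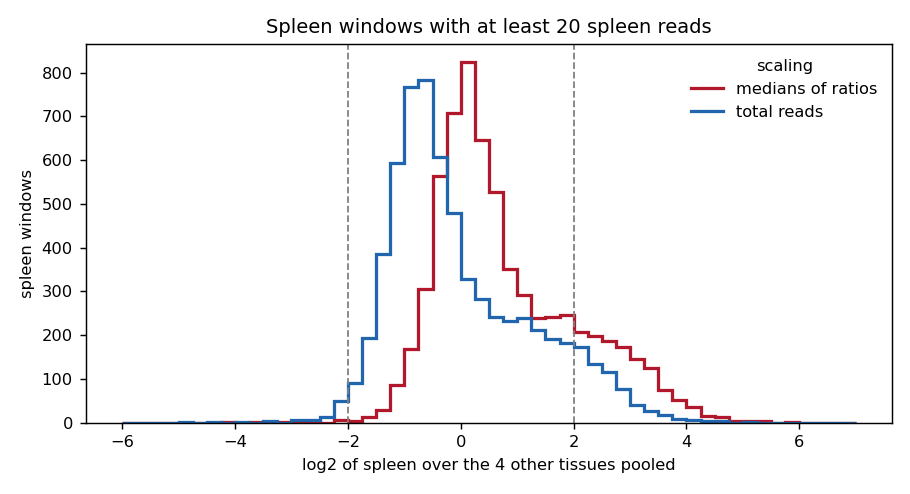
Histogram of the log2 ratio of spleen over the other 4 tissues pooled, for 6505 spleen windows, under both scalings; dashed lines mark 4-fold lower and 4-fold higher. The median is 0.45 by medians of ratios and -0.36 by total reads, and both curves have a long right shoulder.

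The spleen-high windows were places where the other tissues mostly had no peak. Of the 669, 76.4% overlapped no peak of another tissue, against 12.5% of all 6505 windows with at least 20 spleen reads, a comparison in part fixed by the fold rule. Lung had a peak in 21.2% of the 669, and brain, kidney and liver in 3.14% to 4.04%. Around the 669 windows, read density at the centre was on average 3.88 times that 2 to 3 kb away in spleen, against 1.48 in brain, 1.69 in kidney, 1.53 in liver and 1.68 in lung. Low centres in the other tissues also follow in part from the fold rule. These averages weigh windows by their reads, so piles of repeated reads count heavily in them. The window chr9:3035841-3036341 held 3395 spleen reads, where the median of the 669 held 26. Around the 193 windows called under both scalings, spleen density at the centre was 4.19 times that 2 to 3 kb away. The same ratio was 1.14 in brain, 1.24 in kidney, 1.20 in liver and 1.06 in lung. In the windows that were not spleen-high the ratio was 4.70 in spleen and 4.86 to 6.51 in the other tissues on average, and 3644 of the 6505 windows (56.0%) overlapped a peak in all 4 other tissues.

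**Figure D3:**
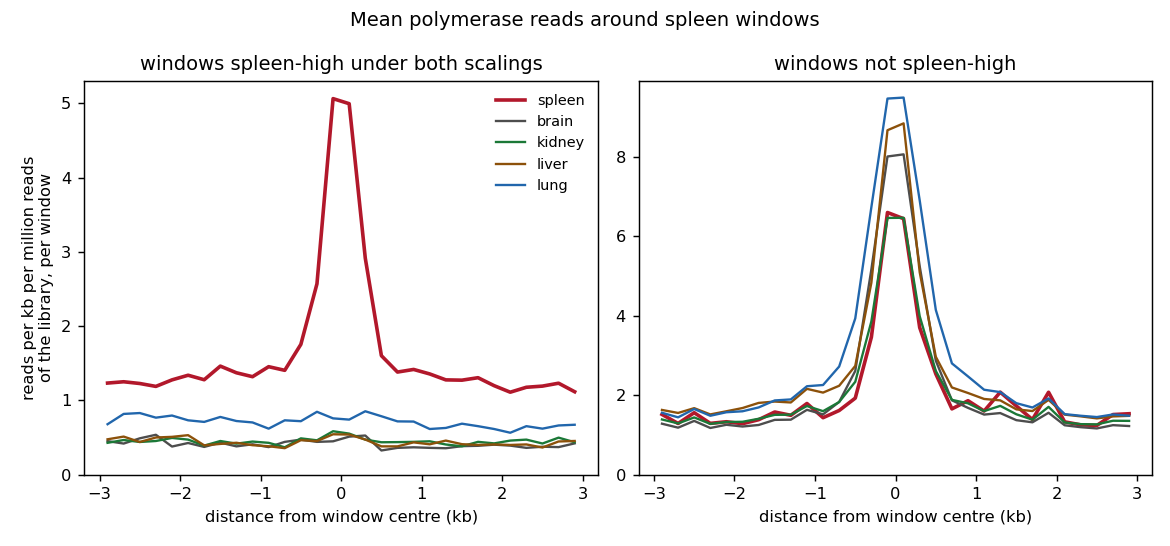
Mean read density scaled to library size, by distance from the window centre in kb, for windows spleen-high under both scalings (left) and windows with at least 20 spleen reads that were not spleen-high (right); lines are tissues. On the left only the spleen line has a clear central peak, and on the right all 5 do.

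Most spleen-high windows stood alone, and the 5 runs with the most windows, ties broken by spleen reads, lay at places of antigen receptor, antigen presentation and blood cell microRNA genes. Joining windows up to 5 kb apart gave 553 groups, of which 489 were single windows and 19 held at least 3. The longest run, chr12:114643306-114666556, held 25 windows over 23.3 kb at the places of Ighm and Ighd, the heavy chain constant genes of naive B cells. Its spleen-high windows summed to 1415 reads in spleen, against 73 in brain, 102 in kidney, 175 in liver and 277 in lung. That is 8.63-fold over lung by medians of ratios (interval 7.58 to 9.85) and 4.17-fold by total reads (3.66 to 4.76). The next run held 6 windows. The fifth place was shared by 4 runs of 4 windows, of which 2, at chr2:172853081-172861231 and chr10:95833626-95842126, lay in no kept place and 1 lay at Pax5.

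That second run, chr17:34428496-34442096, lay at the places of H2-Aa and H2-Eb1, which encode chains of MHC class II, the molecules that present antigen to helper T cells. It held 269 reads in spleen, against 30 in brain, 51 in kidney, 47 in liver and 38 in lung, 8.58-fold over kidney by medians of ratios and 5.47-fold by total reads. A run of 5 at chr11:87558311-87569361 lay at the place of Mir142, a microRNA gene of blood cells, with 384 reads in spleen against 37 in brain, 40 in kidney, 60 in liver and 106 in lung. Another run of 5, chr6:70668871-70677421, lay at Igkc, the kappa light chain constant gene, with 228 reads in spleen against 10 in brain, 31 in kidney, 14 in liver and 58 in lung. A run of 4, chr11:106171526-106180376, lay at Cd79b, a signalling chain of the B cell receptor, with 219 reads in spleen against 10 in brain, 23 in kidney, 15 in liver and 43 in lung. Because the runs are made of called windows, spleen had to be highest in them, and their folds and intervals do not allow for that choice. Lung was the next tissue in 4 of the 5.

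The 10 spleen-high windows with the largest folds, among those with at least 50 spleen reads, were named by fold and not by gene. The first, chr1:53848156-53848656, had 76 reads in spleen against 2 in brain, 4 in kidney, 3 in liver and 4 in lung, 30.9-fold over kidney (interval 11.6 to 116). It lay in no kept place, and neither did the windows at chr10:42621186-42621686, chr9:105973951-105974451, chr10:59682641-59683141 and chr6:48682836-48683336, which held 52, 93, 66 and 50 spleen reads against at most 4, 10, 8 and 7 in any other tissue. The other 5 lay at the places of Cd79b, Iglc1 (a lambda light chain constant gene), Ccr7 (the receptor that guides T cells and dendritic cells to lymphoid tissue) and, for 2 windows, Ighm and Ighd. All 10 remained spleen-high by total reads, at 5.83-fold to 15.5-fold over the next tissue. Because the windows were picked by fold, spleen had to be highest in them, and the folds and interval do not allow for that choice.

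**Figure D4:**
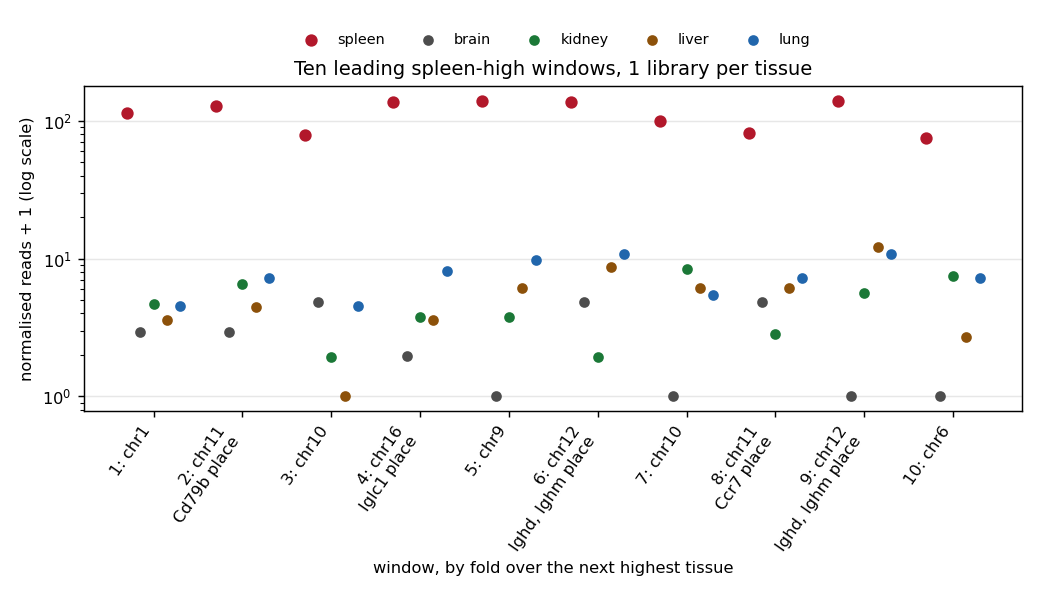
Normalised reads plus 1 (medians of ratios, log scale) in the 10 leading spleen-high windows, with 1 point per tissue library; windows run from the largest fold over the next highest tissue. Every spleen point lies above all points of the other tissues, which the fold rule that picked these windows requires.

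Some windows near the fold threshold were piles of repeated reads. The 3 just inside it, with at least 50 reads, had folds of 4.02, 4.12 and 4.1, and the 3 just outside had 3.99, 3.98 and 3.98. Of the inside windows, chr9:3035841-3036341 held 3395 spleen reads at only 180 distinct positions and strands, and chr9:3027391-3027891 held 851 at 112. The inside window chr15:100499611-100500111, at the place of the pancreas marker Cela1, had 51 reads in spleen, against 3 in brain, 11 in kidney, 14 in liver and 21 in lung. The outside window chr2:58012196-58012696, at the place of Cytip, a lymphocyte adhesion regulator, had 85 in spleen, against 1 in brain, 18 in kidney, 8 in liver and 36 in lung. Reads repeated at the same position and strand made up 38.2% of spleen reads in the 669 windows and 15.7% in the 193 called under both scalings. Over all 6505 windows with at least 20 spleen reads the share was 32.4%. In 226 of the 669 fewer than 20 distinct positions were covered, and with repeats removed 448 windows were called.

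Blood cell gene lists were then read at their places, where the level of a gene is the sum of reads in all peak regions of the place. A place was counted as 2-fold when it held at least 20 spleen reads and a scaled level at least 2-fold that of every other tissue. Over all 40-kb bins of the genome with at least 20 spleen reads, 7.2% passed by medians of ratios and 2.13% by total reads. Spleen was the highest tissue in 28.0% of bins by medians of ratios and 8.13% by total reads. The median bin stood at 0.14 on the log2 scale of spleen over the other tissues pooled by medians of ratios, and at -0.68 by total reads. Places differ from bins in length and in being genes, so the bins are a background and not a matched control. The lists were chosen with earlier results of these data known.

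Across 11 blood cell lists, 78 of 165 placed genes passed 2-fold by medians of ratios and 36 by total reads. At their places 157 of 338 windows with at least 20 spleen reads were spleen-high (46.4%), and 55 were so under both scalings (16.3%). In the 10 lists of other tissues and processes, 4 of 78 such windows were spleen-high (5.13%), and none under both. Lymphoid lists had 83 of 144 (57.6%) and erythroid lists 9 of 40 (22.5%) by medians of ratios, against 10.3% of all windows with at least 20 spleen reads. Under both scalings they had 32 of 144 (22.2%) and 5 of 40 (12.5%), against 2.97% of all such windows. The lymphoid share came mainly from immunoglobulin windows, 38 of 45 by medians of ratios, and B cell windows, 37 of 58. Of those 38, 25 lay at the Ighd place. T cell windows were spleen-high in 8 of 40 by medians of ratios and 2 of 40 under both scalings, against 9 and 5 of 40 in the erythroid lists. The order was reversed at whole places. There the median log2 ratio over the pooled tissues was 1.31 for T cell and 0.33 for erythroid genes by medians of ratios. By total reads it was 0.50 and -0.49. The 1 natural killer and cytotoxic window was not spleen-high.

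**Figure D5:**
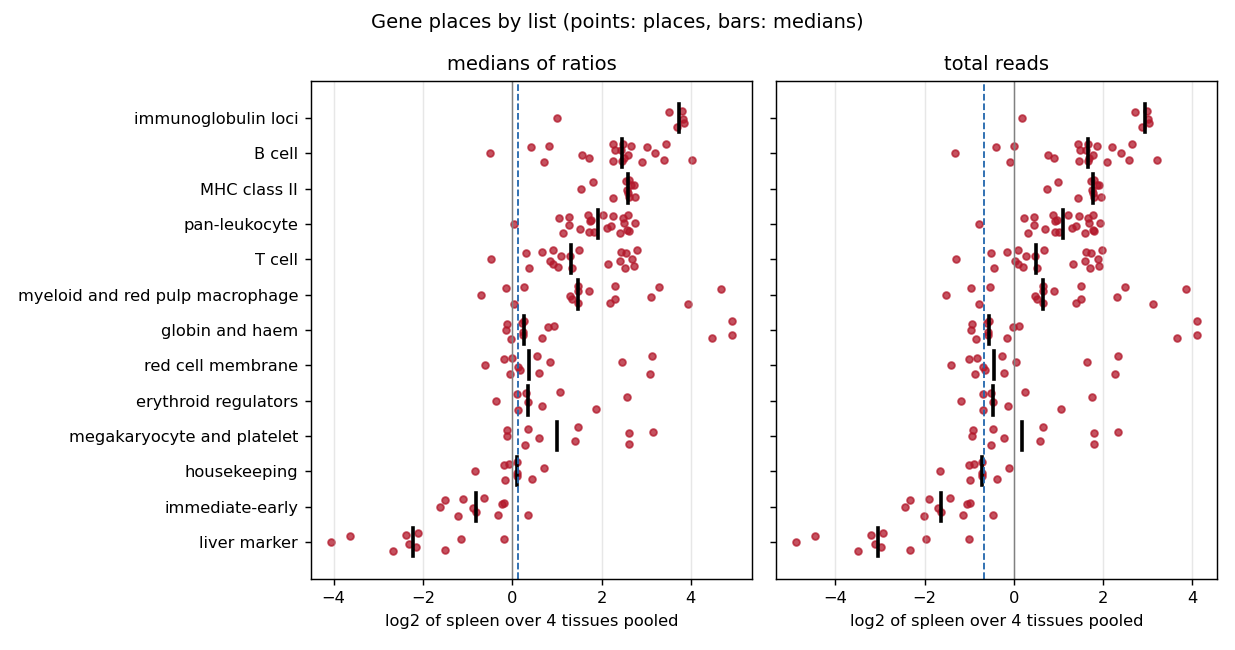
Log2 of spleen over the 4 other tissues pooled for the places of 13 gene lists with at least 20 spleen reads (points), with list medians (black bars) and the median of genome bins (dashed blue), by medians of ratios (left) and total reads (right). Immunoglobulin, B cell and MHC class II medians lie farthest to the right, and most erythroid places sit near the genome bins except a few far to the right.

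Immunoglobulin genes had the highest list median, followed by MHC class II and B cell genes. Of 7 placed genes of the immunoglobulin list, which also holds the receptor chains Cd79a and Cd79b, 5 passed 2-fold under each scaling, with a list median of 3.74 by medians of ratios and 2.93 by total reads (log2 over the pooled tissues). The Ighm place held 1372 reads in spleen, against 76 in brain, 97 in kidney, 155 in liver and 321 in lung, 7.22-fold over lung (interval 6.39 to 8.18) and 3.49-fold by total reads. The Igkc place held 273 in spleen, against 14 in brain, 38 in kidney, 29 in liver and 76 in lung, 6.07-fold over lung and 2.93-fold by total reads. Near-identical immunoglobulin genes share sequence, and the labels do not say how reads with several hits were treated, so their split between copies is uncertain.

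Of 21 placed B cell genes, 17 passed 2-fold by medians of ratios and 12 by total reads. The list median was 2.47 by medians of ratios and 1.65 by total reads. A spleen-high window lay at 18 of the 21 places, and at 11 of them under both scalings. In the lists of other tissues and processes 3 of 87 placed genes had such a window, and 0 under both scalings. The share over all genes was not counted, and a place with more windows can more easily hold a called one. Ms4a1, which encodes the surface protein CD20, had in its window chr19:11340331-11340831 47 reads in spleen, against 3 in brain, 2 in kidney, 4 in liver and 3 in lung. The place of Pou2af1, a coactivator of the Oct factors needed for germinal centres, held 64 reads in spleen, against 2 in brain, 7 in kidney, 8 in liver and 9 in lung, 12-fold over lung (5.95 to 27.5) and 5.81-fold by total reads. The place of Pax5, the factor that holds B cell identity, carried 63 spleen windows and 1004 reads in spleen, against 193 in brain, 251 in kidney, 262 in liver and 337 in lung. These 3 genes were highest in spleen under both scalings. Faim3, the receptor for IgM now called Fcmr, had 46 reads in its window chr1:132762041-132762541 in spleen, against 7 in brain, 5 in kidney, 5 in liver and 5 in lung. Blnk, an adaptor of B cell receptor signalling, had 37 in chr19:41044541-41045541 in spleen, against 5 in brain, 8 in kidney, 3 in liver and 7 in lung.

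The Cd79a place as a whole stood apart less: it held 419 reads in spleen, against 258 in brain, 369 in kidney, 319 in liver and 440 in lung, and spleen was above lung by medians of ratios (1.61-fold) but below it by total reads (0.778). One window inside it, chr7:25682266-25682766, held 48 reads in spleen against 6 in brain, 4 in kidney, 5 in liver and 14 in lung. The Cxcr5 place, for the receptor that draws B cells into follicles, showed the same contrast, with 1.24-fold over lung for the place by medians of ratios, 0.598 by total reads, and 8.93-fold for the window chr9:44334151-44334651. Bcl6, a germinal centre repressor, was below liver, 0.396-fold by medians of ratios and 0.256-fold by total reads. It had 300 reads in spleen, against 385 in brain, 556 in kidney, 1319 in liver and 553 in lung. By medians of ratios spleen was also somewhat below kidney and lung but above brain, and by total reads it was the lowest tissue.

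MHC class II genes were higher in spleen than in every other tissue at all 11 placed members, though by less than the immunoglobulin genes. All 11 passed 2-fold by medians of ratios and 3 by total reads, with medians of 2.59 and 1.78 on the log2 scale. The place of Cd74, the invariant chain that escorts class II molecules, held 896 reads in spleen, against 102 in brain, 166 in kidney, 161 in liver and 540 in lung, 2.80-fold over lung (2.52 to 3.13) and 1.35-fold by total reads. Ciita, the coactivator that switches class II genes on, had 32 reads in its window chr16:10516226-10516726 in spleen, against 5 in brain, 4 in kidney, 2 in liver and 6 in lung. Lung was the next highest tissue at 10 of the 11 places by medians of ratios and at 11 by total reads. H2-Oa, which tunes peptide loading in B cells, had in its window chr17:34229201-34229701 26 reads in spleen, against none in brain, 2 in kidney, 3 in liver and 4 in lung, and H2-DMa, a peptide exchange chain, had 21 in chr17:34282036-34282536 in spleen, against 4, 5, 3 and 2 in brain, kidney, liver and lung. The window given for H2-DMa also lies at the places of H2-DMb1 and H2-DMb2. These genes are therefore not resolved, and the 11 places are not all separate.

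T cell genes were higher in spleen less uniformly. Of 25 placed, 8 passed 2-fold by medians of ratios and 2 by total reads, and the list median was 1.31 and 0.50. The place of Cd3e, part of the T cell receptor complex, held 92 reads in spleen, against 12 in brain, 27 in kidney, 17 in liver and 57 in lung, 2.73-fold over lung (1.94 to 3.86) and 1.32-fold by total reads. The Cd4 place was below brain, 0.332-fold by medians of ratios and 0.167-fold by total reads, and it may hold reads of neighbouring genes. It held 57 reads in spleen, against 264 in brain, 93 in kidney, 100 in liver and 69 in lung. By medians of ratios spleen stood close to kidney and liver and above lung, and by total reads it was the lowest tissue. The Ccr7 window in the list of leading windows was the 1 leading window at a T cell gene, with 54 reads in spleen against 4 in brain, 2 in kidney, 6 in liver and 7 in lung. Ets1, a transcription factor of lymphocytes, had 53 in chr9:32459616-32460116 in spleen, against 3 in brain, none in kidney, 7 in liver and 9 in lung, although its whole place was only 1.56-fold over lung and below it by total reads (0.755). Of 9 placed natural killer and cytotoxic genes, none passed 2-fold and 7 had no spleen window. Prf1, which encodes perforin, had 49 reads at its place in spleen, 1.43-fold over lung by medians of ratios and below it by total reads (0.690), and the granzyme genes Gzma and Gzmb had no peak region in any tissue, so at this depth no difference was detectable for them.

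Genes shared by leukocytes passed mainly under 1 scaling: 16 of 22 by medians of ratios and 1, Ikzf1, by total reads. The place of Ptprc, the CD45 phosphatase of all leukocytes, held 515 reads in spleen, against 68 in brain, 121 in kidney, 168 in liver and 211 in lung, 4.12-fold over lung and 1.99-fold by total reads. Ikzf1, a zinc finger factor of lymphocytes, had 939 in spleen, against 131 in brain, 197 in kidney, 236 in liver and 365 in lung, 4.35-fold and 2.10-fold. Selplg, a ligand of selectins, had in the window chr5:114280731-114281231 96 reads in spleen, against 7 in brain, 8 in kidney, 12 in liver and 18 in lung. Dock2, which steers lymphocyte migration through Rac, had 33 in chr11:34596401-34596901 in spleen, against 1 in brain, 3 in kidney, none in liver and 6 in lung. Its partner Rac2 had 31 in chr15:78394476-78394976 in spleen, against 2 in brain, 8 in kidney, 5 in liver and 6 in lung. Spleen was the highest tissue at 21 of these 22 places by medians of ratios and at 15 by total reads.

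Macrophage and granulocyte genes were split. Of 19 placed, 11 passed 2-fold by medians of ratios and 4 by total reads: Spic, Cd5l, S100a8 and S100a9. Spic, the factor that red pulp macrophages depend on, had 38 reads at its place in spleen, against 3 in brain, 8 in kidney, 10 in liver and 8 in lung, 6.62-fold over liver (3.24 to 14.9) and 3.88-fold over lung by total reads. Cd5l, a secreted protein of tissue macrophages, had 73 in spleen, against 2 in brain, 2 in kidney, 9 in liver and 6 in lung, 14.1-fold over liver (7.05 to 32.1) and 9.14-fold by total reads. Both were above every other tissue under both scalings, at low read counts.

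Whole places of Slc40a1, Hmox1 and Csf1r did not reach 2-fold over every other tissue under either scaling. Slc40a1, the iron exporter ferroportin, had 162 reads in spleen against 60 in brain, 237 in kidney, 664 in liver and 77 in lung. By medians of ratios its spleen level was below liver only, and by total reads below liver and kidney. Hmox1, which breaks down haem, had 194 in spleen, against 72 in brain, 131 in kidney, 243 in liver and 77 in lung, above liver by medians of ratios (1.39-fold) and below it by total reads (0.899). One window in its place, chr8:77621081-77621581, which also lies in the place of the replication gene Mcm5, was spleen-high by medians of ratios, with 26 reads in spleen against none in brain, 10 in kidney, 10 in liver and 1 in lung. Csf1r, the receptor of macrophage growth factor, had 271 in spleen, against 304 in brain, 504 in kidney, 296 in liver and 380 in lung. By medians of ratios its spleen level was below kidney only, and by total reads it was above liver only.

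Erythroid genes gave a narrow signal, at the globin genes and a few membrane genes. The Hba-a1 place, whose promoter is printed above, held 1 window, chr11:32184421-32184921, with 23 reads in spleen, against 1 in brain, 1 in kidney, 1 in liver and 2 in lung. That is 30.4-fold over the other tissues pooled by medians of ratios (interval 11.3 to 102) and 17.3-fold by total reads (6.42 to 58.2). Over the next highest single tissue, with counts under 3 raised to 3, it was 11.8-fold and 5.94-fold. Its near-identical copy Hba-a2 shares that window at the precision of the places, so the 2 genes are not resolved. The Hbb-bs place held 67 reads in spleen, against 2 in brain, 13 in kidney, 3 in liver and 2 in lung, 8.39-fold over kidney (4.59 to 16.6) and 5.35-fold by total reads, or 22.1-fold and 12.6-fold over the pooled tissues, with the window chr7:110974531-110975031 at 31 in spleen against none in brain, 7 in kidney, none in liver and 1 in lung. Hbb-bt had 15 in spleen, under the minimum of 20, against 2, 3, 1 and 1 in brain, kidney, liver and lung. The name Hbb-b1 of older annotations was not matched to a place.

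Slc4a1, the anion exchanger band 3 of the red cell membrane, held 145 reads at its place in spleen, against 27 in brain, 82 in kidney, 41 in liver and 24 in lung, 2.88-fold over kidney (2.18 to 3.82) and 1.84-fold by total reads. Its window chr11:102224546-102225546 had 31 in spleen, against 5 in brain, 4 in kidney, 3 in liver and 5 in lung. Kel, a blood group protein, had 20 reads in spleen against 5 in brain, 5 in kidney, 3 in liver and 2 in lung. Car1, a carbonic anhydrase of red cells, had 27 in spleen against none in brain, 4 in kidney, 14 in liver and 3 in lung. Both passed 2-fold under each scaling, at counts close to the minimum of 20.

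The rest of the erythroid program stood near the genome bins. Of 10 placed erythroid regulators, 1 passed 2-fold under each scaling, Gfi1b, with 26 reads in spleen against 5 in brain, 9 in kidney, 8 in liver and 7 in lung. Gata1, the master factor of red cells, had 3 reads at its place in spleen, against 4 in brain, 10 in kidney, 6 in liver and 1 in lung, too few to show a difference. Klf1, which activates beta globin, had 131 in spleen, against 246 in brain, 122 in kidney, 171 in liver and 139 in lung, and dense neighbours may lie in its place. By medians of ratios spleen was below brain only at Klf1, and by total reads above kidney only. Tfrc, the transferrin receptor that brings in iron, had 147 in spleen, against 154 in brain, 144 in kidney, 206 in liver and 111 in lung. Spleen was highest at Tfrc by medians of ratios, under 2-fold, and below brain and liver by total reads. Of 14 placed globin and haem genes, 3 passed 2-fold under each scaling, all of them globins, and of 16 membrane genes 3 passed by medians of ratios and 2 by total reads. List medians were 0.35 for the regulators, 0.26 for globin and haem and 0.36 for the membrane genes by medians of ratios, and -0.46, -0.56 and -0.45 by total reads, near the 0.14 and -0.68 of the bins.

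Platelet genes stood above the erythroid lists in list median, at 1.00 by medians of ratios and 0.19 by total reads. In the share of spleen-high windows they stood below them. Of 12 windows with at least 20 spleen reads at their places, 1 was spleen-high by medians of ratios (8.33%) and 0 under both scalings. The erythroid lists had 22.5% and 12.5%, and all such windows 10.3% and 2.97%. Of 11 placed megakaryocyte and platelet genes, 3 passed 2-fold under both scalings: Itgb3, the integrin chain that binds fibrinogen, and the neighbours Pf4 and Ppbp, which share the same windows here. In the erythroid lists together, 7 of 40 placed genes passed 2-fold by medians of ratios and 6 by total reads. Itgb3 had 43 reads in spleen, against 10 in brain, 6 in kidney, 8 in liver and 8 in lung.

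The microRNA genes of blood cells were added to the lists after values were seen. Mature sequences are printed for Mir142, which carries a run of spleen-high windows, and for Mir223 and Mir451a, which mark myeloid and red cells; they are from RefSeq with the seed, bases 2 to 8, in capitals.
miR-142a-3p: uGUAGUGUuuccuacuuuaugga
miR-142a-5p: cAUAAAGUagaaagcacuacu
miR-223-3p: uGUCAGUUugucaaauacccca
miR-451a: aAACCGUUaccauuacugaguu
No seed is shared among these 4. The Mir142 place held 888 reads in spleen, against 185 in brain, 118 in kidney, 118 in liver and 437 in lung, 3.43-fold over lung (3.06 to 3.86) and 1.66-fold by total reads, and Mir223 80 in spleen, against 13, 18, 31 and 29 in brain, kidney, liver and lung. The Mir451a place, shared with Mir144, had 127 in spleen, against 98 in brain, 100 in kidney, 60 in liver and 73 in lung. Reads here are polymerase on DNA, not mature microRNA.

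Among the spleen windows few were low in spleen by medians of ratios, and more by total reads. By medians of ratios, the low windows with the most reads elsewhere were mainly liver windows. Because the windows sit on spleen peaks, regions with little spleen polymerase are mostly left out, so a low count is partly built in. A window was called spleen-low when it stood at least 4-fold below the other tissues pooled with at least 20 reads expected. By medians of ratios 50 of 4743 were called (1.05%), and by total reads 363 of 8443 (4.3%). Of the 5 with the most reads in the other tissues, 4 were highest in liver, and 2 of these lay at the place of Alb, the liver gene for serum albumin. The Alb place held 245 reads in spleen, against 188 in brain, 210 in kidney, 19594 in liver and 218 in lung. A window at chr7:52965806-52966306 was low against all other tissues, with 29 reads in spleen against 180 in brain, 316 in kidney, 287 in liver and 319 in lung, and it lay in no kept place.

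Markers of tissue that can be dissected with the spleen were read at the same places. Of 5 placed pancreas markers, 1 passed 2-fold by medians of ratios and none by total reads, and 2 of the 3 windows with at least 20 spleen reads were spleen-high by medians of ratios. Cpa1, Pnlip and Ins2 had no peak region in any tissue. Cela1, a pancreatic elastase, had 156 reads in spleen, against 35 in brain, 85 in kidney, 66 in liver and 83 in lung, and Ctrb1, a digestive protease, had 40 in spleen, against 38 in brain, 20 in kidney, 26 in liver and 31 in lung. Of 5 placed muscle and mesothelium markers none passed 2-fold. Their part in the results above was not tested. Tlx1, a factor needed to form the spleen, had no peak region at its place in any tissue.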

How the data were processed

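RNA polymerase II ChIP-seq of spleen, brain, kidney, liver and lung was analysed with 1 library per tissue. The authors deposited positions, not values: a list of aligned reads per library (other, no unit) made with Bowtie, per the submitters' processing notes, and a list of peak positions on a 5 bp grid. The aligner's version and settings, the peak caller and the build are not stated there. Reads of 34 to 36 bases were kept, and 5′ ends were counted in spleen windows. No test was run and no p-value was computed. Members and lists were chosen with earlier results of these data known. The plan allowed gene names only from an annotation of the files' build. None was given, so naming by recalled places departs from it, and promoter and gene-body counts were not made. Recalled places were compared with a GRCm38 table by spacing only, without converting coordinates, within 20 kb of up to 2 neighbours on each side. Named windows were the 10 leading, 3 just inside and 3 just outside the fold, the 5 longest runs, the 5 spleen-low windows and up to 5 members per list whose windows were spleen-high under both scalings, and a set of genes given whatever their values. Other genes named were chosen after their values were seen. Some listed genes are not reported here. Calling was tested on simulated data. The tools were SciPy 1.17.1, NumPy 2.4.6, Matplotlib 3.10.9, pandas 2.3.3 and Python 3.11.15.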

Additional observations from a re-analysis of the deposited data

How the results depend on the processing

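The number of spleen-high windows, 669, depended on scaling, read minimum and window size. It was 193 by total reads, and 193 under both scalings together. It was 84 with a half-width of 100 bp and 1092 with 500 bp, 4084 and 71 with minimums of 10 and 50 reads, 1613 and 145 with folds of 2 and 8, and 364 after thinning to the smallest library. Removing repeated reads and scaling by total reads left 119. By total reads the other counts were 608 over the pooled tissues, 966 over brain, 815 over kidney, 1023 over liver, 366 over lung and 363 spleen-low. Genes of the blood cell lists with a spleen-high window numbered 72 of 165 placed, and 35 by total reads. The same share over all genes was not counted. The remaining alternatives, including leaving out each other tissue, stayed within 1.5 times of the main count, between 448 and 949. The cause was not tested. Both scalings together, repeated reads with total reads, and the place margins of 5 and 20 kb (65 and 77 genes) were added after the data were seen. Promoter widths and gene bodies were not run, because no annotation of the files' build was given. No paired analysis was possible because each tissue had 1 library and no test was made. The median window held 14 spleen reads, under the minimum of 20, so most windows could not be called spleen-high.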

Other observations

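Immediate-early genes, which respond within minutes to handling or stimulation, stood lower in spleen than in the other tissues pooled, and lung was mostly the highest of these. The pooled ratio does not separate a low spleen level from a high lung level. Spleen was the highest tissue at none of 11 placed members, and the list median was -0.82 on the log2 scale of spleen over the pooled tissues by medians of ratios and -1.63 by total reads. Dusp1, a phosphatase of MAP kinases, had 164 reads in spleen, against 310 in brain, 488 in kidney, 545 in liver and 1976 in lung. Nr4a1, an orphan nuclear receptor, had 267 in spleen, against 445 in brain, 441 in kidney, 315 in liver and 2564 in lung. By medians of ratios Nr4a1 in spleen was close to brain and kidney and above liver, and by total reads spleen was the lowest tissue. Lung was the highest of the other 4 tissues at 10 of 11 places by medians of ratios. Zfp36, a protein that destabilises mRNA, was the 1 member above the pooled tissues by medians of ratios, and was below them by total reads. It had 829 in spleen, against 327 in brain, 624 in kidney, 1705 in liver and 1654 in lung, above brain and kidney under both scalings.

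Genes of the cell cycle and of the spleen stroma gave little. Of 10 placed cell cycle genes none passed 2-fold, and Mcm5, a helicase subunit, was the 1 with a spleen-high window, which also lies in the place of Hmox1. Of 8 placed stroma genes none passed 2-fold and 7 had no spleen window.

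A group of windows near the start of chromosome 9 held many reads at few positions in spleen. The window chr9:3003936-3004936 had 2643 reads at 147 distinct positions in spleen, against 231 in brain, 879 in kidney, 485 in liver and 424 in lung.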
